A study of Mus musculus with 4 samples.

Results

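The cytosolic ribosomal protein genes encode the protein parts of the large and the small ribosomal subunit. They were taken as the probes whose gene symbol begins with Rpl or Rps and a digit, or is Rplp0, Rplp1, Rplp2 or Rpsa. The S6 kinase genes, Rps19bp1 and pseudogenes were left out. The rule found 113 probes of 70 genes, 45 of the large and 25 of the small subunit, among 18129 probes of 12347 genes that carried a single gene name. No such probe was named Rplp2 or Rpsa. A further 3 probes named a ribosomal protein gene beside another gene and were assigned to neither. Rpl7l1, Rpl3l and other paralogues fall under the rule by symbol, although not all of them are parts of a usual ribosome.

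The ribosome joins amino acids on its large subunit as its small subunit reads the messenger RNA. Most of its proteins are needed in equal numbers, and the messenger RNAs of its proteins are among the most abundant of a growing fibroblast. These RNAs typically begin with a C followed by a run of pyrimidines, the terminal oligopyrimidine motif, through which the kinase complex mTORC1 and the RNA-binding protein LARP1 set their translation. Transcription of the genes depends on growth regulators such as MYC.

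RNA of NIH 3T3 cells, an established line of mouse fibroblasts, was hybridised to 4 oligonucleotide arrays of 2 colours. Every array paired Cy5-labelled RNA of cells stably carrying the pU6-m3 plasmid with a knockdown insert against Cy3-labelled RNA of cells carrying empty pU6-m3. The insert was siSelT-1 (nucleotides 205 to 224 of the Selt messenger RNA, which encodes selenoprotein T) on 2 arrays and siSelT-5 (nucleotides 971 to 989) on the other 2. All cells, vector cells included, were kept under hygromycin B at 150 µg/ml with 10% fetal bovine serum and 100 nM sodium selenite, and replicates came from separate cultures harvested at different times. Whether a line was 1 clone or a pool, and whether arrays shared vector RNA, was not given in the sources used here.

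A value is the deposited log ratio of knockdown over vector, read as log2, so that 1 stands for a doubling. Neither the base nor the direction of the ratio is stated, and a reversed ratio would turn every sign. The dyes were never swapped, so a dye effect on a gene is not cancelled. The targeted gene had no named probe, so the knockdown itself was not checked here. Of 12 fibroblast markers, 8 had values on all 4 arrays, as did 6 of 21 markers of other cell types; ratios give no levels and do not tell whether a marker is absent. The siSelT-1 arrays valued 7689 and 9232 probes and the siSelT-5 arrays 20268 and 18361. On the 7038 probes valued by all arrays the medians were 0.19, 0.09, 0.43 and 0.36, and values called centred are taken from these medians. The number of arrays limits the precision. In bulk RNA a change in the mix of cells and a change per cell cannot be told apart.

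Both constructs together address whether the mean ratio of the 2 knockdown lines differed from vector. Nearly all tested ribosomal protein genes stood above vector, and those of the large and the small subunit stood about equally high. Of the 15 probes valued with siSelT-5 alone, which the test left out, 14 stood below 0. A gene was tested where a probe had values on all 4 arrays, which held for 50 of the 70 genes. Of these, 48 rose and 0 fell (limma, adjusted p 0.00161 to 0.0292 for the 48). Of all 4754 genes tested, 45.7% rose and 8.04% fell. The median of the 50 genes was 0.85, or 1.81-fold, against 0.25 over all genes. The interquartile range of the 50 genes was 0.61 to 1.02, and 15 of those that rose did so at least 2-fold. How many of all genes rose that far was not counted. After centring 40 rose and 1 fell, with a median of 0.59, against 20.5% of all genes higher and 21.9% lower. With each array also divided by its median absolute deviation 41 rose and 0 fell, against 22.5% higher and 24.4% lower (46.9% in either direction).

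Without any single array the median ratio stayed between 0.79 and 0.92, while the number of calls changed. Without siSelT-1 replicate 1 the median of the 50 genes was 0.79, with 48 above 0 and Rps2 at 1.28. With 1 array fewer limma then called 0 of the 50 genes and 0 of all 4754. In that fit 1 siSelT-1 array was left, so the spread came from the siSelT-5 arrays alone. Without siSelT-1 replicate 2 the median was 0.92 and 38 rose, where 17% of all genes rose and 1.39% fell. With a single mean over the 4 arrays, an alternative chosen after seeing the data that counts the spread between constructs as error, 43 rose, where 29.7% of all genes did.

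**Figure D1:**
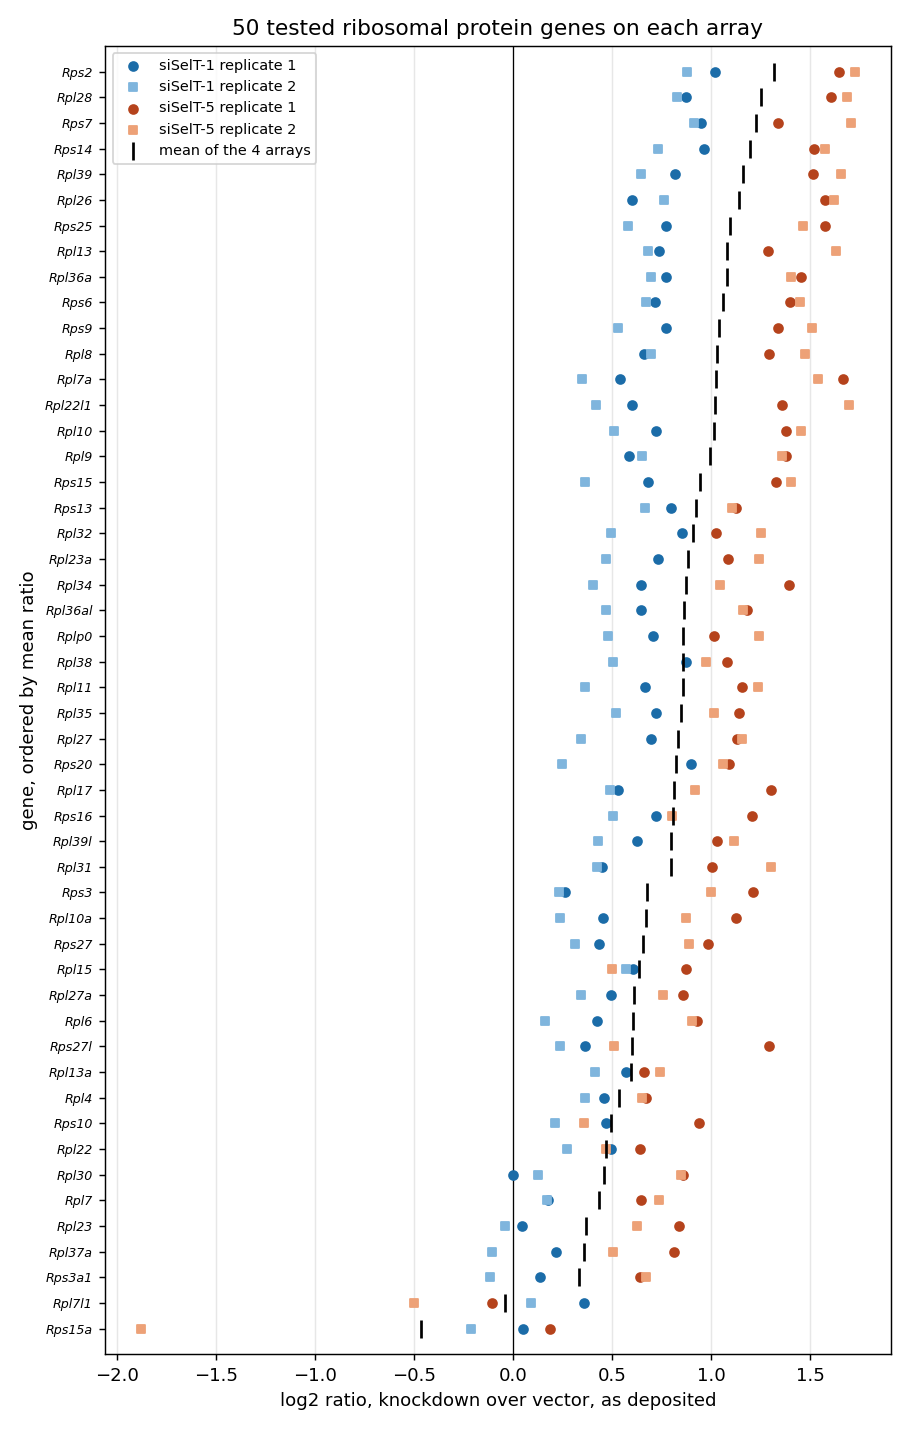
Log2 ratio of knockdown over vector (x axis, as deposited) of the 50 tested ribosomal protein genes (y axis, ordered by mean) on each of the 4 arrays. Points are single arrays and black ticks the mean of 4; most siSelT-5 points lie to the right of the siSelT-1 points, and the bottom genes are Rpl7l1 and Rps15a.

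The highest gene was Rps2, whose protein lines the path by which messenger RNA enters the small subunit. Its ratio was 1.02 and 0.88 with siSelT-1 and 1.65 and 1.73 with siSelT-5. All 4 arrays were well above 0, both siSelT-5 arrays were above both siSelT-1 arrays, and the mean of 1.32 ± 0.43 (SD, n = 4) is 2.49-fold (limma, adjusted p = 0.00161). Rpl28, a large subunit protein of animals, stood at 0.88 and 0.83 with siSelT-1 and at 1.61 and 1.69 with siSelT-5 (mean 1.25 ± 0.46). Its replicates lay closer to each other than the constructs did.

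Rps7, a small subunit protein that can also bind the p53 regulator Mdm2, gave 0.95 and 0.91 with siSelT-1 and 1.34 and 1.71 with siSelT-5 (1.23 ± 0.37). Rps14, a small subunit protein whose loss of 1 copy in people causes an anaemia, gave 0.97 and 0.73, then 1.52 and 1.58 (1.20 ± 0.42). Rpl39 sits in the tunnel through which the new protein leaves. It gave 0.82 and 0.65 with siSelT-1 and 1.51 and 1.65 with siSelT-5 (1.16 ± 0.50). Rpl26, near the mouth of the same tunnel, gave 0.60 and 0.76, then 1.57 and 1.62 (1.14 ± 0.53). In these 6 genes no siSelT-1 value reached a siSelT-5 value, as in 45 of the 50 genes and 52.6% of all genes. Centred and scaled, this held in 22 of the 50 and 30.1% of all genes. All 6, chosen for the highest means, rose as deposited and centred.

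The lowest tested genes did not share this height. Rps15a, a small subunit protein, had the lowest mean, -0.46 ± 0.96 (SD, n = 4), and it did not pass (adjusted p = 0.267). Its values were 0.05 and -0.21 with siSelT-1 and 0.19 and -1.88 with siSelT-5. The last value stands far from the other 3 arrays. Without siSelT-5 replicate 2 the mean was 0.05, and without siSelT-5 replicate 1 it was -0.98. Each of these fits kept 1 siSelT-5 array and could not take in the SD of 1.46 between the siSelT-5 arrays. Rps15a had a single probe.

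Rpl7l1, a homologue of Rpl7 that takes part in ribosome assembly, stood at 0.36 and 0.09 with siSelT-1 and at -0.10 and -0.50 with siSelT-5. Its mean of -0.04 ± 0.36 did not pass as deposited (adjusted p = 0.772). Centred, at -0.31, it was the 1 gene that fell (adjusted p = 0.0437), and centred and scaled, at -0.23, it did not pass (adjusted p = 0.0616). Rps3a1, of the small subunit, stood at 0.14 and -0.12, then at 0.64 and 0.67 (0.33 ± 0.39). Rpl37a gave 0.22 and -0.11, then 0.82 and 0.50 (0.36 ± 0.39). Rpl23, a large subunit protein that can bind Mdm2, gave 0.05 and -0.04, then 0.84 and 0.63 (0.37 ± 0.43). Rpl7 stood at 0.18 and 0.17, then at 0.64 and 0.74 (0.43 ± 0.30). These 4 rose as deposited, with the siSelT-5 arrays supplying most of the mean, and did not pass after centring (adjusted p 0.121 to 0.494). Rpl30, Rpl22, Rps10 and Rps27l likewise did not pass after centring, though Rpl22 did centred and scaled (0.23, adjusted p = 0.0494). In all, 40 of the 48 genes rose both as deposited and centred. A further Rpl23 probe, without a value on siSelT-1 replicate 1, gave 0.77, then 0.62 and 1.34, and another gave 0.28 on siSelT-1 replicate 2 alone. With the first of these taken in, by asking a value of only 1 array of each construct, Rpl23 stood at 0.53.

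The 2 subunits were alike in height. With both constructs 33 of 34 large subunit genes and 15 of 16 small subunit genes rose, with medians of 0.85 and 0.87. On siSelT-1 replicate 1 the medians were 0.60 for large and 0.72 for small, and on replicate 2 they were 0.43 for each. On siSelT-5 replicate 1 they were 1.11 and 1.25, and on replicate 2 they were 1.14 and 1.08. Neither subunit was the higher on every array. Centred, 28 large subunit genes rose and 1 fell, and 12 small subunit genes rose and 0 fell. With siSelT-1 alone the shares called parted. Centred, 14.7% of the large and 37.5% of the small subunit genes rose, against 3.83% of all genes. Centred and scaled the order turned, with 76.5% and 56.2%, against 16.4% of all genes.

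Ranks within an array do not depend on centring or scaling. The median ribosomal protein gene stood at the 90.8th and 85.9th percentile of all tested genes with siSelT-1, and at the 94.3rd and 92.0th with siSelT-5. In the top 25% of every array were 33 of the 50, against 8.56% of all genes, and above the median of every array were 43, against 25.3%.

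**Figure D2:**
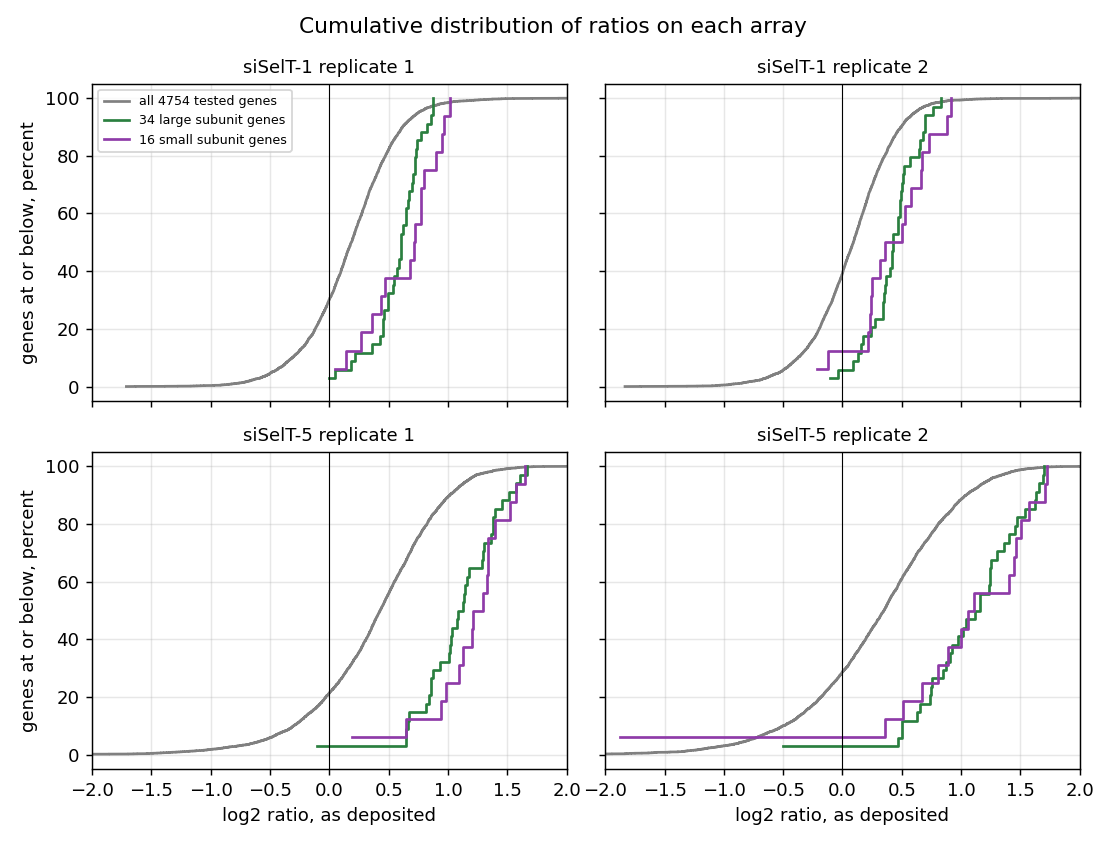
Cumulative share of genes (y axis, percent) at or below a log2 ratio (x axis, shown from -2 to 2) on each array, for all 4754 tested genes, 34 large subunit genes and 16 small subunit genes. On every array both coloured curves lie mostly to the right of the grey one and near each other. On siSelT-5 replicate 2 the small subunit curve starts further left, at Rps15a (-1.88).

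siSelT-1 alone against vector asks what the first construct changed. Ribosomal protein genes stood moderately above vector: 25 of 50 rose and 0 fell, 17 of the large and 8 of the small subunit, where 10.3% of all genes rose and 3.37% fell. The median was 0.53, or 1.44-fold, against 0.14 over all genes. No gene reached a doubling; the highest mean was 0.95, that of Rps2 (adjusted p = 0.0238), followed by Rps7 at 0.93 (0.0296) and Rpl28 at 0.85 (0.0256). Rps3a1 (0.0096) and the tested Rpl23 probe (0.0039) lay next to 0 and did not pass; with the further probe valued under both constructs Rpl23 stood at 0.21 (adjusted p = 0.398).

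On the 2 siSelT-1 arrays, 49 and 46 of the 50 genes were above 0, against 69.7% and 60.7% of all genes, and in 46 of the 50 replicate 1 was the higher, as in 70.5% of all genes. After centring 11 rose and 0 fell, where 3.83% of all genes rose and 5.07% fell (8.9% in either direction). Centred and scaled, 35 rose and 0 fell, against 16.4% and 17% (33.4% in either direction). Leaving out a siSelT-1 array left 1 array of that construct, whose spread such a fit cannot measure. The medians of the 50 genes were then 0.43 and 0.64. Single genes near 0, such as Rpl23, Rpl37a and Rps3a1, turned sign between the 2 arrays.

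siSelT-5 alone against vector gave the higher ratios. Of the 50 genes 48 rose and 0 fell, 33 of the large and 15 of the small subunit, where 47.6% of all genes rose and 6.29% fell. The median was 1.12, or 2.18-fold, against 0.37 over all genes, and 34 genes rose at least 2-fold. The share of all genes that rose at least 2-fold was not counted. The upper quartile of all genes was 0.74 on siSelT-5 replicate 1 and 0.72 on replicate 2. Rps2 was again highest at 1.69, or 3.22-fold, and Rpl28 (1.65), Rpl7a (1.61) and Rpl26 (1.60) followed. Rpl7l1 (-0.30) and Rps15a (-0.85) did not pass (adjusted p = 0.130 and 0.165). After centring 39 rose and Rpl7l1 fell (-0.70, adjusted p = 0.0147), where 19.2% of all genes rose and 20% fell. Centred and scaled, 36 rose and 1 fell, against 14.9% and 15.8% (30.7% in either direction).

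siSelT-1 was also set directly against siSelT-5, a difference from which a constant dye effect cancels. Of 50 genes 48 had the lower ratio with siSelT-1, with a median difference of -0.62 against -0.26 over all genes. None of the 50 passed (limma, lowest adjusted p = 0.0543). Of all genes 0.0631% passed, 0.021% higher and 0.0421% lower, as deposited and also centred, and 0.316% did centred and scaled. An unadjusted p under 0.05 was held by 38 of the 50 and by 1697 of all 4754 genes. Centred and scaled, 7 of the 50 and 1224 of all genes held one. In 45 genes both siSelT-5 values lay above both siSelT-1 values, which held for 52.6% of all genes. Without siSelT-5 replicate 1 limma called 36 genes, 34 lower and 2 higher, against 28% and 9.76% of all genes. Without siSelT-5 replicate 2 it called 36 lower and 0 higher, against 31.4% and 6.27%, while without either siSelT-1 array it called 0.

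Rpl7a, a large subunit protein, had the widest gap: 0.54 and 0.35 with siSelT-1 and 1.67 and 1.54 with siSelT-5, a difference of -1.16 (95% interval -1.57 to -0.75). Next came Rpl22l1, the paralogue of Rpl22, at -1.02 (-1.49 to -0.55) and Rpl26 at -0.91 (-1.31 to -0.52). Rps3, which lies at the messenger RNA entry and also has a role in DNA repair, followed at -0.86 (-1.26 to -0.46). The intervals of these 4 lay below 0, and none passed after adjustment (adjusted p 0.0543 to 0.0546).

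At the other end, Rps15a at 0.76 (-0.83 to 2.36) and Rpl7l1 at 0.53 (0.014 to 1.04) had the higher ratio with siSelT-1. Rpl15 at -0.10 (-0.56 to 0.37) and Rpl22 at -0.17 (-0.60 to 0.25) were nearest to no difference, and their intervals allow a difference either way. Centred, both turned to a higher ratio with siSelT-1 (0.15 and 0.080).

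Ratios of all genes were more widely spread on the siSelT-5 arrays, with an SD over the tested genes of 0.55 and 0.62 against 0.39 and 0.36 for siSelT-1. With each array centred and divided by its median absolute deviation, the median difference of the 50 genes was -0.12, with 36 lower with siSelT-1, and the siSelT-1 and siSelT-5 medians were 0.50 and 0.60. In that setting 22 genes had both siSelT-5 values above both siSelT-1 values, against 30.1% of all genes, and after centring alone it was 38, against 32.0%. The part of this spread in the gap between constructs was not tested further.

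**Figure D3:**
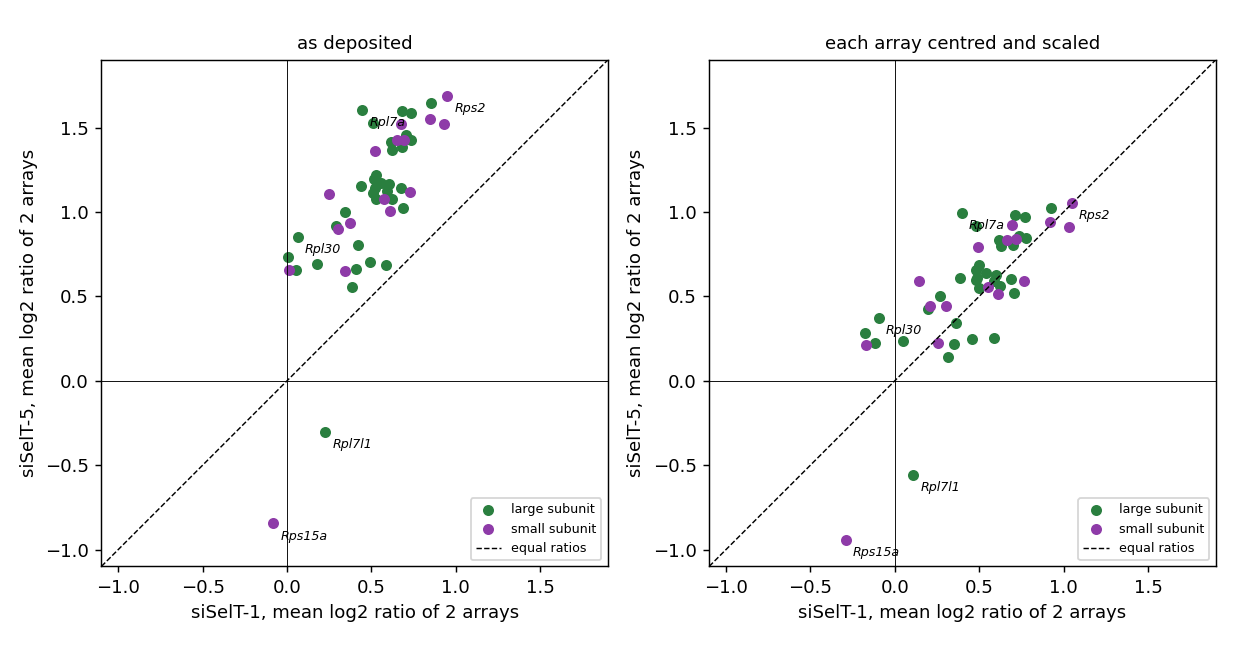
Mean log2 ratio with siSelT-5 (y axis, 2 arrays) against that with siSelT-1 (x axis, 2 arrays) for the 50 tested genes, as deposited on the left and with each array centred and scaled on the right. As deposited 48 genes lie above the dashed line of equal ratios; after scaling the points lie closer to it and 36 lie above.

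By role, the acidic stalk that recruits elongation factors to the large subunit was represented by Rplp0 and Rplp1. Rplp0 stood at 0.70 and 0.48 with siSelT-1 and at 1.01 and 1.24 with siSelT-5, and rose (mean 0.86 ± 0.33, SD, n = 4). A further Rplp0 probe, without a value on siSelT-1 replicate 1, gave -0.24, 0.27 and 0.09, lower on each shared array. With both probes Rplp0 stood at 0.53 under the filter that asks a value of only 1 array of each construct (adjusted p = 0.0186). Rplp1 was not tested. Its 2 probes gave 0.61 and 0.63 on siSelT-1 replicate 2, and 1.32, 1.36 and 1.41 where they had siSelT-5 values.

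Rps6, the small subunit protein that S6 kinases phosphorylate, stood at 0.71 and 0.67, then at 1.40 and 1.45, and rose (1.06 ± 0.42). Rpl10, added late in the maturing of the large subunit, rose to 1.02 ± 0.47, and Rpl10a to 0.67 ± 0.40. Rpl5 and Rpl11 bind the smallest ribosomal RNA of the large subunit and, when free, restrain Mdm2. Rpl11 rose to 0.86 ± 0.42, with 0.67 and 0.36 with siSelT-1 and 1.16 and 1.24 with siSelT-5. Rpl5 had no value on siSelT-1 replicate 1 and was not tested; it gave 0.76 on siSelT-1 replicate 2 and 1.22 and 0.92 with siSelT-5, close to Rpl11 or above it except on siSelT-5 replicate 2.

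Rpl30 also binds the element by which selenoprotein messenger RNAs take up selenocysteine. It stood at -0.0004 and 0.13 with siSelT-1 and at 0.86 and 0.85 with siSelT-5. The constructs did not overlap, as in 45 of the 50 genes and 52.6% of all genes. With siSelT-1 Rpl30 did not pass (0.064, adjusted p = 0.715). With siSelT-5 it rose (0.85, adjusted p = 0.00274), below the median of 1.12 of the 50 genes. It passed with siSelT-5 centred (0.46, adjusted p = 0.0262) but not centred and scaled (0.37, adjusted p = 0.0529). The difference of -0.79 (95% interval -1.17 to -0.41) did not pass (adjusted p = 0.0546). Rpl38, known for its part in translating Hox messenger RNAs, rose to 0.86 ± 0.25.

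Paralogue pairs stood on the same side of vector where both members were tested, apart from Rpl7 and Rpl7l1. Rpl36a stood at 1.08 ± 0.40 (SD, n = 4) and Rpl36al at 0.86 ± 0.36, and Rpl39 at 1.16 ± 0.50 and Rpl39l at 0.80 ± 0.33. Rps27 stood at 0.66 ± 0.33 and Rps27l, a p53 target, at 0.60 ± 0.48. All 6 rose as deposited. Rpl22 and Rpl22l1 differed more: Rpl22 gave 0.49 and 0.27, then 0.64 and 0.47 (0.47 ± 0.15), and Rpl22l1 gave 0.60 and 0.42, then 1.36 and 1.70 (1.02 ± 0.61). The 2 genes lay close together with siSelT-1 and apart with siSelT-5. Rpl3 and Rpl3l each had 1 value, on siSelT-5 replicate 2, at -1.15 and -0.94. Whether the oligonucleotides tell such near copies, or the many pseudogenes of this family, apart was not tested.

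Rpl13a, a large subunit protein that can also silence inflammatory messenger RNAs, was spotted far more often than any other member, with 22 probes, 21 of them valued on all arrays. As their mean it stood at 0.57 and 0.42 with siSelT-1 and at 0.66 and 0.74 with siSelT-5, and rose (0.60 ± 0.14). It thus lay among the lower members, below the median gene on all 4 arrays. The difference between constructs was -0.21 (95% interval -0.60 to 0.18).

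The 21 probes show how far single spots of 1 RNA scatter. With siSelT-1 they ran from 0.26 through a median of 0.55 to 0.97, and from -0.06 through 0.46 to 0.60. With siSelT-5 they ran from -0.92 through 0.73 to 1.22, and from -1.11 through 0.72 to 1.49. Their SD was 0.17 and 0.16 with siSelT-1 and 0.45 and 0.53 with siSelT-5, where the SD over the 50 genes was 0.25, 0.25, 0.36 and 0.61. The spots of this gene were thus spread less than the 50 genes with siSelT-1 and on siSelT-5 replicate 2. On siSelT-5 replicate 1 their SD was the larger and their interquartile range, 0.32 against 0.42, the smaller. On siSelT-5 replicate 1 and on replicate 2, 1 probe each stood below 0, and these were different probes. The 22nd probe, valued with siSelT-5 alone, gave -0.64 and -0.92.

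**Figure D4:**
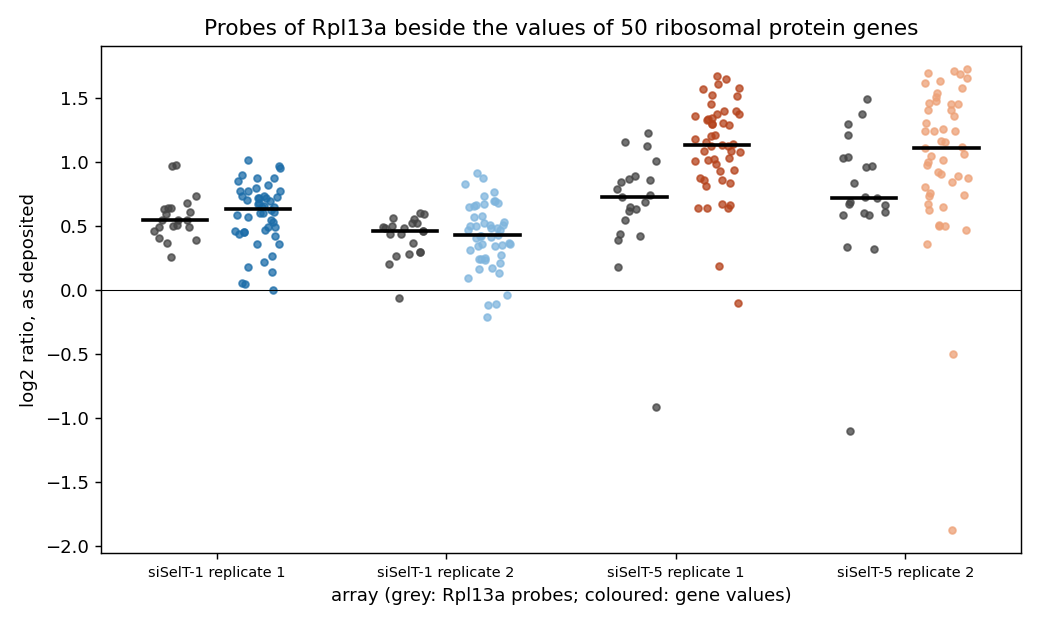
Log2 ratios (y axis, as deposited) on each array (x axis) of the 21 Rpl13a probes with values on all arrays, in grey, and of the 50 tested ribosomal protein genes, in colour; points are single probes or genes with sideways jitter and bars are medians. With siSelT-5 the Rpl13a median lies below that of the genes and single probes fall to -0.92 and -1.11.

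Another 5 genes had at least 2 probes on all arrays. The probe means of Rpl38 were 0.83 and 0.89 and those of Rpl4, which lines the exit tunnel, 0.51 and 0.56, so they nearly coincided. A further Rpl38 probe, without a value on siSelT-1 replicate 1, gave 0.76, then 1.55 and 1.76, above the other Rpl38 probes on each of these arrays. Rpl27a had 3, at 0.34, 0.72 and 0.78, and Rps3 had 2, at 0.49 and 0.87. Rpl7l1 split in sign, at -0.44 and 0.37: its lower probe gave 0.024 and -0.27, then -0.70 and -0.84, and its upper probe 0.69 and 0.45, then 0.49 and -0.17. The fall of Rpl7l1 after centring is therefore a mean of 2 probes that disagree. Counting every probe with a siSelT-5 value, 17 genes other than Rpl13a had at least 2, and in 8 of these the probes had opposite signs. Apart from Rpl7l1, the probes below 0 in these 8 genes were valued with siSelT-5 alone. Of such probes of other genes 13.7% stood above 0. In Rpl28 the tested probe averaged 1.65 and the other stood at -0.74 on its 1 array. Rps18 stood at 0.95 and -0.90, and Rps13 at 1.12 and -0.76.

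Which arrays valued a probe went with its ratio. Of the 113 probes, 76 had values on all 4 arrays, 17 on all but siSelT-1 replicate 1, 15 with siSelT-5 alone and 5 in other ways. The 17 had a median siSelT-5 ratio of 1.12, and 16 of them were above 0. Probes of other genes missing on the same array had a median of 0.0046, and 50.3% of them were above 0. The 15 probes valued with siSelT-5 alone were low, with a median of -0.76 and 14 below 0, much as for other genes (-0.82, with 13.7% above 0). Such probes made up 13.3% of ribosomal protein probes and 54.6% of the other named probes. The test took in only probes that all arrays valued, and the part of this selection in the counts above was not tested.

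**Figure D5:**
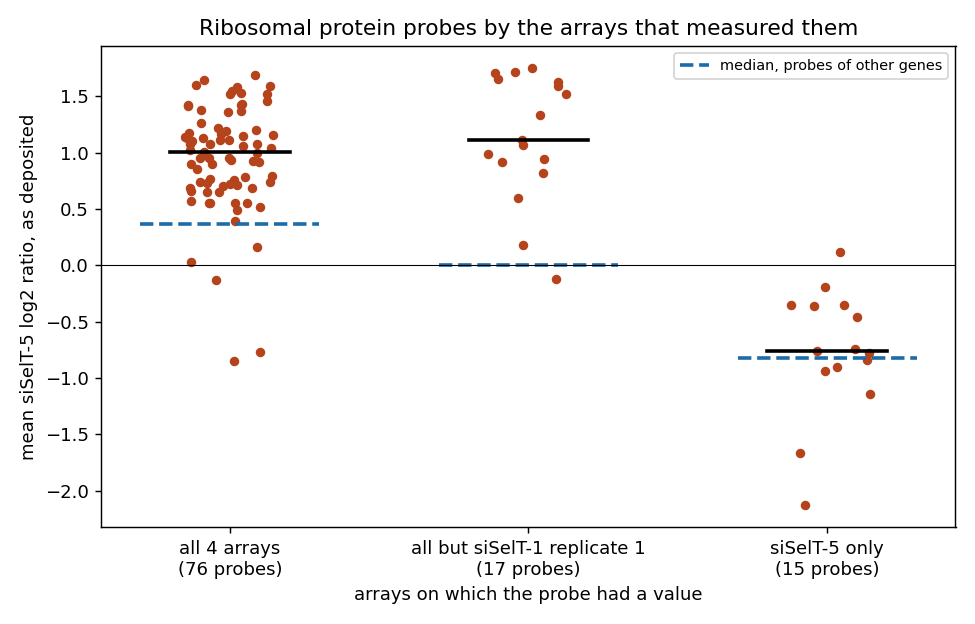
Mean siSelT-5 log2 ratio (y axis, as deposited) of ribosomal protein probes by the arrays on which they had a value (x axis); points are probes with sideways jitter, black bars their medians and dashed blue lines the medians of probes of other genes. Probes missing on siSelT-1 replicate 1 alone sit around 1.12, against 0.0046 for other genes, and probes valued with siSelT-5 alone sit around -0.76.

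The 20 genes not tested fall into the same classes. A probe on all but siSelT-1 replicate 1 was held by 12: Rpl5, Rpl21, Rpl24, Rpl29, Rpl35a, Rpl37, Rplp1, Rps12, Rps18, Rps21, Rps23 and Rps26. Among them Rpl24 gave 1.25 on siSelT-1 replicate 2 and 1.49 and 1.69 with siSelT-5. Rps26 gave 0.68, then 1.64 and 1.87, and Rps23 0.74, then 1.57 and 1.87. On siSelT-5 replicate 2 the values of Rps26 and Rps23 exceeded that of Rps2, the highest tested gene. Rpl29 stood apart at -0.0011, -0.21 and -0.025. Another 3 genes, Rpl41, Rps28 and Rps29, had fewer values, of which Rps28 gave 0.92 on siSelT-1 replicate 2 and 1.84 on siSelT-5 replicate 2. The remaining 5, Rpl3, Rpl3l, Rpl14, Rps19 and Rps24, had siSelT-5 values alone. Rps19, mutated in Diamond-Blackfan anaemia, gave -0.35 and -2.13 from 2 probes on siSelT-5 replicate 1. With a value asked of only 1 array of each construct, 64 genes could be fitted and 60 of them rose with both constructs, where 34.2% of 6024 genes did.

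The start of the genes was read because the members moved together. RefSeq promoter windows of GRCm38.p6, 250 bases before to 50 after an annotated start, were held for 57 of the 70 genes in 68 windows. Shown are the 15 bases on each side of the start for 5 of the 6 highest and for the 5 lowest tested genes, with the longest terminal oligopyrimidine-like run in capitals. Such a run was a C followed by at least 5 letters that are each C or T, on the gene's strand, beginning within 10 bases of the start. The highest genes come first.
Rps2: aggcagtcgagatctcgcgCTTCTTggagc
Rpl28: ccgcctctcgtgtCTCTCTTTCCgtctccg
Rps7: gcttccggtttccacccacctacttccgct
Rpl39: cctaagctccgcctctagcgaCTTCTTCTa
Rpl26: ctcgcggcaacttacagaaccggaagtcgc
Rpl23: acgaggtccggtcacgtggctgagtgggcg
Rpl37a: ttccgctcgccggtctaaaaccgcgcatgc
Rps3a1: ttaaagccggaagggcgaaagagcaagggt
Rpl7l1: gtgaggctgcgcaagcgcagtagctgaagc
Rps15a: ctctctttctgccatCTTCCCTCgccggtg

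The windows shown lie at chr17:24720048-24720077 (Rps2, plus strand), chr7:4792950-4792979 (Rpl28, plus), chr12:28635939-28635968 (Rps7, minus), chrX:37085208-37085237 (Rpl39, minus) and chr11:68901551-68901580 (Rpl26, plus). Those of the low genes lie at chr11:97782425-97782454 (Rpl23, minus), chr1:72711245-72711274 (Rpl37a, plus), chr3:86142654-86142683 (Rps3a1, minus), chr17:46782642-46782671 (Rpl7l1, minus) and chr7:118116133-118116162 (Rps15a, minus). Each spans the upstream flank and the first bases of the transcript. Of the 5 high genes 3 carried the run, and of the 5 lowest Rps15a alone did, directly at its annotated start.

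Over all 68 windows 45.6% held the run, against 19.2% of all 32851 promoter windows. A run beginning exactly at the start was held by 16.2% against 1.7%. The letters CCGGAAG, the core bound by ETS factors such as GABP, were found on either strand of the whole window in 35.3% against 8.86%, and TATAAA in 10.3% against 13.6%. These motifs can overlap and are matches of letters, and an annotated start can be some bases off. Within the 42 tested genes with a window, the 21 with the run near the start had a median ratio of 0.80 and the 21 without it 0.86. Genes with CCGGAAG (18) and without it (24) both had a median of 0.85. Genes with TATAAA (6) had 1.05 and those without it (36) 0.82. These medians carry no test.

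Other genes of ribosome function are given by lists. Of 11 ribosome-associated proteins and ubiquitin fusions outside the naming rule, 7 were tested, and 6 rose and 0 fell with both constructs (85.7% higher, against 45.7% of all genes), with a median of 0.78. Fau, whose product is cleaved into a small subunit protein, rose to 1.03 ± 0.31 (SD, n = 4), Serbp1, a ribosome-binding protein, to 0.98 ± 0.38, Nmd3, the export adaptor of the large subunit, to 0.87 ± 0.52 and Tpt1 to 0.78 ± 0.57. These values lie in the range of the ribosomal protein genes, with siSelT-5 above siSelT-1 in each. Eif6, which keeps the subunits apart, stood at 0.21 and did not pass.

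Of 106 ribosome biogenesis genes 54 were tested; 26 rose and 1 fell (Rpf2, -0.49, adjusted p = 0.0142), with a median of 0.30, near the 0.25 of all genes. The share that rose, 48.1%, was near the 45.7% of all genes. After centring 11 rose (20.4%, against 20.5% of all genes) and 9 fell, where 21.9% of all genes fell. Nsa2, which acts in large subunit assembly, rose to 1.12 ± 0.23, Nop10, of the pseudouridylation complex, to 0.80 ± 0.28 and the RNA polymerase subunit gene Polr2f to 0.87 ± 0.40. Rrp1 rose to 0.88 ± 0.94, with 0.04 and 0.10 with siSelT-1 and 1.76 and 1.64 with siSelT-5, so its mean stems from siSelT-5. Of 26 regulators of the mTORC1 and MYC pathways 15 were tested, and 6 rose and 0 fell (median 0.26). The share that rose as deposited, 40%, lay below that of all genes. After centring 3 rose (20%) and 2 fell (Tsc2 and Deptor), where 20.5% of all genes rose and 21.9% fell. The S6 kinase gene Rps6kb2 rose to 1.26 ± 0.25, Larp1, the gene of the repressor that binds the terminal oligopyrimidine motif, to 0.80 ± 0.44 and Eif4ebp1 to 0.55 ± 0.27. With a value asked of only 1 array of each construct Larp1 stood at 0.47 (adjusted p = 0.0312). Akt1s1 rose to 0.51 ± 0.27 as deposited only.

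Beside the cytosolic ribosome, 58 tested mitochondrial ribosomal protein genes had a median of 0.37, with 35 higher and 2 lower (Mrpl13 and Mrps27), and 48 translation initiation and elongation factor genes had 0.36, with 27 higher and 1 lower (Eif5b). The shares that rose were 60.3% and 56.2%, against 45.7% of all genes, of which 8.04% fell. Centred medians were 0.59 for the cytosolic ribosomal protein genes and 0.10 for each of the other 2 lists. The lists differed on each array: on siSelT-1 replicate 1 the medians were 0.64, 0.31 and 0.26, and on siSelT-5 replicate 1 they were 1.14, 0.63 and 0.60. These are descriptions, with no test between lists.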

How the data were processed

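The authors deposited 1 log ratio per probe and array, read here as log2 of knockdown over vector. The labels give Cy5 for knockdown and Cy3 for vector. The base and direction of the ratio, background correction, normalization and filter are not given in the sources used here. Values were used as deposited. Of 22534 probes, 18129 had a single name in the platform annotation; Entrez identifiers matched 18041 of them to GRCm38.p6 symbols and changed 0. A gene was the mean of its single-name probes with a value on all 4 arrays, which gave 4754 genes.

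limma 3.58.1 in R 4.3.3 (lmFit, eBayes) fitted 2 construct means with 2 residual degrees of freedom and 4 contrasts. The threshold was a two-sided Benjamini-Hochberg adjusted p under 0.05 over all 4754 genes. The fit was tested on simulated data. p-values of this fit measure the spread between these arrays within a construct only. The printed SD over 4 arrays also takes in the gap between constructs. Named genes were the 6 highest, the 6 lowest, 8 by construct difference, those with several probes, paralogues, genes of set roles and up to 4 per other list. Rpl24, Rpl29, Rps13, Rps18, Rps23, Rps26, Rps28, Eif6 and genes named for a small count were added after their values were seen. Alternatives were centring, scaling, robust eBayes, probes fitted singly, a value asked of 1 array of each construct, the replicate number as a block, a stricter threshold, each array left out and, chosen after seeing the data, a single mean over the 4 arrays. Members and lists were chosen with earlier results of these data known.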

Additional observations from a re-analysis of the deposited data

Results flagged for a closer look

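Rpl7l1 stood above 0 on both siSelT-1 arrays and below 0 on both siSelT-5 arrays, with a difference of 0.53. The limma test of this difference did not pass (adjusted p = 0.134). Without siSelT-5 replicate 1 the difference was 0.73, in a fit that kept 1 siSelT-5 array and no spread between the siSelT-5 arrays. Its 2 probes had opposite mean signs.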

How the results depend on the processing

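Counts are of the 50 tested genes unless stated. For siSelT-1 the 25 that rose, where 10.3% of all genes did, became 11 after centring (3.83% of all genes). With a value asked of 1 array of each construct it was 2 of 64 (0.697% of 6024 genes). With the replicate number as a block it was 0, where 0.526% of all genes rose. At an adjusted p under 0.01 it was also 0, where 0.0631% rose. The siSelT-5 median of 1.12 became 0.73 centred, 0.60 centred and scaled and 1.14 with the looser filter. Leaving out each array gave 0 to 49 calls for both constructs, 0 to 42 for siSelT-1, 45 to 49 for siSelT-5 and 0 to 36 for the difference; the lone array left is assumed to vary like the other construct's. The 48 calls for both constructs and for siSelT-5 stayed at 48 with the block, where 53.8% and 54% of all genes were called in either direction. Deviations of same-numbered arrays correlated at 0.0758 over genes, and 2 pairs cannot show that the numbers pair the arrays. Signs turned centred, and centred and scaled, for siSelT-1 in Rpl23 (-0.14, -0.18), Rpl37a (-0.085, -0.12) and Rps3a1 (-0.13, -0.17), and for the difference in Rpl22 (0.080, 0.18) and Rpl15 (0.15, 0.33). They also turned within the ranges over left-out arrays of Rpl23 (-0.039 to 0.047), Rpl37a (-0.11 to 0.22), Rps3a1 (-0.12 to 0.14) and Rps15a (-0.21 to 0.051) for siSelT-1, Rpl7l1 (-0.14 to 0.061) and Rps15a (-0.98 to 0.054) for both, Rps15a for siSelT-5 (-1.88 to 0.19), and Rpl15 (-0.29 to 0.089) and Rps15a (-0.27 to 1.80) for the difference. Of all values of named genes under the alternatives 655 kept direction and side of the threshold, 113 lost a call, 16 gained one and 20 turned. The cause was not tested.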
